A study of Mus musculus with 32 samples.

Results

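The 10 genes described here encode disulfide isomerases and related thiol enzymes of the endoplasmic reticulum (ER). They are P4hb, Pdia3, Pdia4, Pdia5, Pdia6, Txndc5, Txndc11, Txndc12, Dnajc10 and the oxidase gene Ero1b. They were taken by symbol rather than by a threshold on measured values, and the set was proposed with earlier results of these data known. All 10 were listed in both deposited tables, which held 12791 genes (10 mM glucose) and 12053 genes (1 mM glucose), 11931 of them shared.

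RNA was sequenced from mouse embryonic fibroblasts (MEFs) that all carried a knockout of Acly, the gene of the acetyl-CoA-producing enzyme ATP-citrate lyase. The control cells received mCherry, a red fluorescent protein, alone (KO). The other cells received mCherry-tagged human ACLY without an added localization signal (WT), a form carrying a nuclear export signal (Cyto), or a form carrying nuclear import signals (Nuc). The labels compare where in the cell ACLY resides, and they place each construct for 24 h in DMEM with 10 mM or 1 mM glucose, with 10% of the serum labelled CS. Each combination had 4 libraries, except that 3 Cyto libraries in 10 mM glucose were analysed, which left 15 libraries in 10 mM and 16 in 1 mM glucose. The labels do not say whether a line was a clone or a pool, nor whether libraries of 1 group came from separate cultures, so the p-values measure the spread among these libraries, which may be technical.

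Secreted and membrane proteins acquire their disulfide bonds in the ER. Protein disulfide isomerases carry thioredoxin-like domains whose cysteine pairs make, break and reshuffle these bonds, and the oxidases of the Ero1 family restore them to the oxidized state. Several of these genes are known targets of the unfolded protein response, in which the factors ATF6 and XBP1 bind ER stress elements in promoters. In fibroblasts the same compartment folds collagen, and the protein of P4hb is also the shared beta subunit of the collagen prolyl 4-hydroxylases.

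Promoters are shown for 5 members, because 3 of them (Pdia3, Pdia4 and Pdia6) had the highest pairwise correlations over the 31 libraries, while Ero1b and Txndc5 had others. The 250 bases before the start are given 5′ to 3′ from RefSeq on GRCm38.p6. Capitals mark a match to the ER stress response element (ERSE, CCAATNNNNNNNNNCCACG) or to the XBP1-type element (UPRE, TGACGTGG). Txndc5 has several starts, and the one shown was picked because its window holds such a match. The other windows of Txndc5 held neither element.
Pdia3 (chr2:121413652-121413901, plus strand): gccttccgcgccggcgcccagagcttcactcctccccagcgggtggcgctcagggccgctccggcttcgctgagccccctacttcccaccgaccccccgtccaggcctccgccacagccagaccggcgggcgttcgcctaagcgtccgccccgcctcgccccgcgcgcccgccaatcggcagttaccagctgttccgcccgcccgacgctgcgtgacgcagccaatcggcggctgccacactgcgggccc
Pdia4 (chr6:47813513-47813762, minus strand): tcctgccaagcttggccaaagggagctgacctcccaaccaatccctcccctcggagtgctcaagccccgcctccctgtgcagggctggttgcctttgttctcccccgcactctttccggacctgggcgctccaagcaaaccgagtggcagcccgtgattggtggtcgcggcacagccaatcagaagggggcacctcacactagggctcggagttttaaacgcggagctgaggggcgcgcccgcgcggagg
Pdia6 (chr12:17266339-17266588, plus strand): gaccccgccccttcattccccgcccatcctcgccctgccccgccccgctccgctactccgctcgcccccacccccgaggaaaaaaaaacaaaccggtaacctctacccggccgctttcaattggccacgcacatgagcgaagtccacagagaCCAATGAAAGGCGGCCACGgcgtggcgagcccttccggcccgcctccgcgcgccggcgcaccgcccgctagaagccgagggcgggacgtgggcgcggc
Ero1b (chr13:12565633-12565882, plus strand): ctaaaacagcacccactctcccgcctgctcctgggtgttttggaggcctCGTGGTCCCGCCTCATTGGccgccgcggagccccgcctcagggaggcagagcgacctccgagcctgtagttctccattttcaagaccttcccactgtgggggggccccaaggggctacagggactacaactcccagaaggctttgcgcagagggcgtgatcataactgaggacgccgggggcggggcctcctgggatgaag
Txndc5 (chr13:38527915-38528164, minus strand): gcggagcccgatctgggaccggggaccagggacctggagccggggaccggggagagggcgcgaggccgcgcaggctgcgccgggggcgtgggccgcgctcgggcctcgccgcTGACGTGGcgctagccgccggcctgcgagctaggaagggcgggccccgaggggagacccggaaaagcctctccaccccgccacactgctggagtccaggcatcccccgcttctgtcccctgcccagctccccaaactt

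All 10 members matched the RefSeq promoter table, with 13 windows in all that reach from 250 bases before to 50 bases after a start. Both strands were searched. The full ERSE was present in 0.119% of all 32851 windows. Among the members it was found in Pdia6, on the gene's strand at -98 to -80, and in Ero1b, on the other strand at -201 to -183. The UPRE was present in 0.676% of all windows, and among the members in 1 of the 3 windows of Txndc5 and 1 of the 2 windows of Txndc11. It ends in the reverse complement of CCACG, so each UPRE match overlaps a CCACG match. A more compact element, ERSE-II (ATTGGNCCACG), was present in 0.0365% of all windows and in none of the members' windows. The amino acid response type element TGATGNAA was present in 3.97% of all windows and in 1 window of Txndc5. The separate letters CCAAT were present in 37.4% of all windows and in 7 of the 13, and CCACG in 32.8% and in 8 of the 13. Pdia3 and Pdia4 each had CCAAT more than once but no full match to ERSE, ERSE-II or UPRE. In all windows but that of Pdia4, the final bases occurred in an annotated transcript of the gene. The start used for Pdia4 is therefore less certain. A match is a run of letters and was not tested as a binding site.

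The labels were checked first on Acly, whose log2 level ran from 5.63 to 6.12 in KO and from 8.98 to 10.28 in the other libraries in 10 mM glucose. The corresponding ranges in 1 mM glucose were 5.19 to 5.43 and 8.87 to 10.68. Acly differed among constructs too, and in 1 mM glucose it was lower in Nuc than in Cyto by 1.53 ± 0.07 on the log2 scale (limma, adjusted p = 2.5e-11). The introduced ACLY is human while Acly is the mouse gene, so its level need not equal that of the construct. All 12 fibroblast marker genes were listed, and none of the 6 epithelial markers. Cd68 alone of the 5 immune markers was listed. Of the 4 endothelial markers, 2 were listed in 10 mM and 1 in 1 mM glucose, summing to at most 5.68 CPM in any library. Des alone of the 4 muscle markers was listed, at no more than 16.2 CPM. Of the 5 markers of plasma and other secretory cells, which are rich in these enzymes, Sdc1 alone was listed, and Mzb1, Jchain, Ins2 and Cpa1 were not. The summed fibroblast markers moved with the constructs. In CPM they were 27373 to 28464 in KO, 46365 to 47837 in WT, 38526 to 41902 in Cyto and 51452 to 54789 in Nuc, all in 10 mM glucose. In 1 mM glucose the 4 ranges were 37806 to 44636, 60856 to 69911, 35758 to 39153 and 55840 to 60760. Mitochondrially encoded transcripts moved as well, at 4.70 to 4.79% in KO, 3.49 to 3.55% in WT, 3.74 to 4.40% in Cyto and 4.08 to 4.20% in Nuc with 10 mM glucose. With 1 mM glucose they were 1.65 to 1.95% in KO, 1.20 to 1.31% in WT, 0.875 to 1.06% in Cyto and 1.30 to 1.72% in Nuc, so that Cyto was lowest and Nuc overlapped KO. Their part in the results below was not tested. The WT library numbered 2 in 1 mM glucose and the KO library numbered 1 in 10 mM glucose stood apart from the others of their groups. Member and list counts against KO were recomputed without each. A printed value of a named gene is given without that library where its call changed. The same was done where a called value moved by over 1.5 times. Values called in neither fit are given without that library only in part. In such bulk samples fewer cells with a transcript and less transcript per cell cannot be told apart.

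Levels are the deposited log2 values, which resemble log2 CPM, read counts scaled to library size. The 2 tables were normalized separately and each medium was sequenced as its own batch, so levels are read only within a medium. Levels are not scaled to transcript length and are not compared between genes. A fold change is a difference of group means on the log2 scale, its ± is limma's standard error, and a gene is called where p, adjusted by Benjamini-Hochberg across all genes of the table, is under 0.05. The comparisons against KO share the KO libraries, so their values stand side by side and are not counted as independent.

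At 1 mM glucose the members were higher with ACLY in nearly every case. WT was higher than KO for 9 members and lower for 1, against 29.7% and 28.5% of all genes called higher and lower. Cyto was higher for all 10 and lower for 0, against 31.7% and 33%. Nuc was higher for 9 and lower for 1, against 30.5% and 29.5%. The member called lower was Txndc5 both times. The median log2 fold change of the 10 members was 0.76 in WT, 0.89 in Cyto and 0.98 in Nuc, while that of all genes was between -0.03 and -0.00. Called rises of at least 2-fold were seen for 4, 5 and 5 members in WT, Cyto and Nuc, against 3.13%, 6.46% and 5.05% of all genes. Without WT library 2 the members' counts were the same in all 3 comparisons, and the median in WT was 0.72.

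The picture in 10 mM glucose was smaller and more mixed. WT was higher than KO for 7 members and lower for 2 (Txndc5 and Ero1b), against 20.6% and 20.2% of all genes, and without KO library 1 the counts were 8 and 2. Cyto was higher for 4 and lower for 0, against 19.6% and 18.9%, and without Cyto library 4 the count was 2. Nuc was higher for 3 and lower for 1 (Txndc5), against 22.7% and 22.7%, so that the counts for Nuc lay close to the background. The members' medians were 0.29, 0.14 and 0.15.

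**Figure D1:**
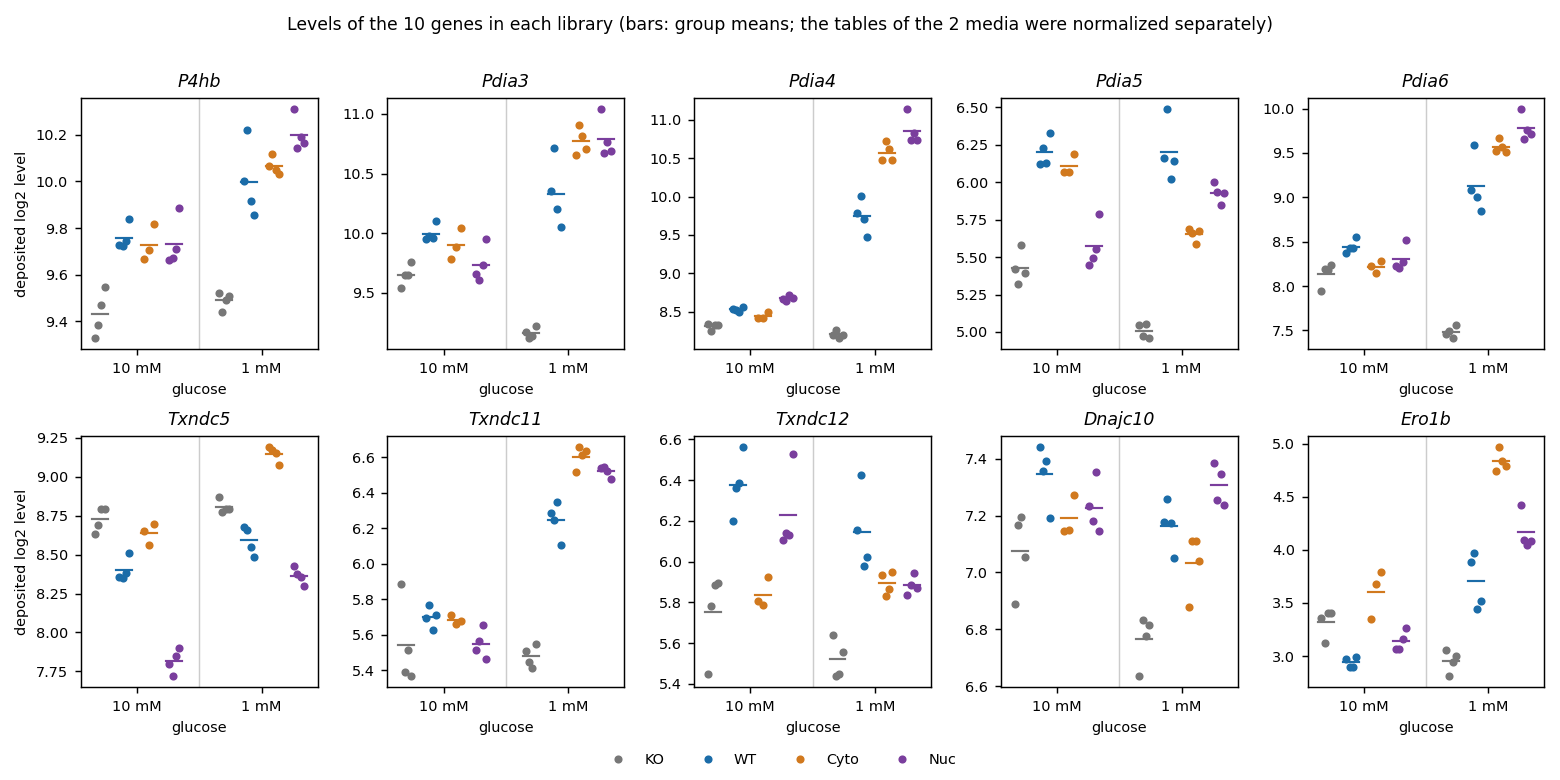
Deposited log2 level (vertical axis, a separate scale for each gene) of the 10 genes in each of 31 libraries, by construct and glucose; points are libraries and bars are group means. In the 1 mM medium every library with an ACLY construct lies above every KO library for all 10 genes but Txndc5, with Pdia4 between 9.47 and 11.14 against 8.16 to 8.27 in KO. The share of all genes without such overlap was not counted. Of all genes, 29.7%, 31.7% and 30.5% were called higher than KO there in WT, Cyto and Nuc.

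Pdia4 (ERp72), an isomerase with several thioredoxin-like domains that associates with the chaperone BiP, had the highest fold changes of the 10 in Cyto and Nuc in 1 mM glucose. Its log2 levels in 1 mM glucose were 8.20, 8.27, 8.16 and 8.20 in KO, 9.79, 10.01, 9.71 and 9.47 in WT, 10.48, 10.73, 10.61 and 10.47 in Cyto, and 11.14, 10.74, 10.82 and 10.74 in Nuc. The 4 groups did not overlap, and the order KO, WT, Cyto, Nuc held for every library. Pdia4 was 2.90-fold higher than in KO in WT (log2 fold change 1.54 ± 0.10, limma adjusted p = 2.72e-09). It was 5.16-fold higher in Cyto (2.37 ± 0.10, adjusted p = 7.4e-12) and 6.29-fold higher in Nuc (2.65 ± 0.10, adjusted p = 2.78e-12). Each step of the order passed the test. The last step, Nuc over Cyto by 0.29 ± 0.10 (adjusted p = 0.0351), was lost in 5 of 16 fits that left out 1 library (Cyto 1, 3 or 4, or Nuc 1 or 3) and under quantile normalization (0.15, adjusted p = 0.149). It was also lost with a prior variance without trend (adjusted p = 0.0517).

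Pdia4 had smaller fold changes in 10 mM glucose. Levels there were 8.34, 8.25, 8.33 and 8.33 in KO, 8.54, 8.53, 8.50 and 8.56 in WT, 8.42, 8.42 and 8.49 in Cyto, and 8.67, 8.64, 8.71 and 8.68 in Nuc. All libraries with ACLY lay above all KO libraries, and Nuc lay highest. The log2 fold changes against KO were 0.22 ± 0.04 in WT, 0.13 ± 0.05 in Cyto and 0.37 ± 0.04 in Nuc (limma adjusted p = 0.000737, 0.0355 and 4.1e-06). The value for Cyto lost its call under quantile normalization (0.04, adjusted p = 0.518), with a prior variance without trend (adjusted p = 0.0669), without the libraries numbered 4 (0.11, adjusted p = 0.077) and in 5 of 15 fits without 1 library (KO 2 or 3, or any Cyto library).

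Pdia6 (P5), which reduces and reshuffles disulfides and binds BiP, followed a similar course and carries the ERSE match printed above. Its levels in 1 mM glucose were 7.46, 7.49, 7.42 and 7.56 in KO, 9.08, 9.59, 9.01 and 8.84 in WT, 9.52, 9.66, 9.57 and 9.51 in Cyto, and 9.99, 9.66, 9.75 and 9.71 in Nuc. KO stood alone at the bottom, WT overlapped Cyto through its library 2, and Cyto and Nuc met at 9.66. The log2 fold changes against KO were 1.65 ± 0.12, 2.08 ± 0.12 and 2.30 ± 0.12 in WT, Cyto and Nuc, or 3.13-fold, 4.23-fold and 4.92-fold (limma adjusted p = 4.65e-09, 1.39e-10 and 4.92e-11). Nuc and Cyto differed by 0.22 (95% interval -0.03 to 0.46), which did not pass. In 10 mM glucose KO spanned 7.94 to 8.24, WT 8.37 to 8.56, Cyto 8.14 to 8.28 and Nuc 8.21 to 8.51. WT alone was called against KO there (0.31 ± 0.08, adjusted p = 0.00482), with 0.08 in Cyto and 0.17 in Nuc. Without KO library 1 the value in Cyto was 0.01. The value in Nuc passed with the replicate number as a block (0.17, adjusted p = 0.0242) and after a correction for transcript length (0.17, adjusted p = 0.0213). In fits without 1 library it ran from 0.10 to 0.20 and was never called (adjusted p up to 0.296).

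Pdia3 (ERp57) works on glycoproteins held by the lectin chaperones calnexin and calreticulin. With 1 mM glucose it was at 9.17, 9.12, 9.14 and 9.22 in KO and at 10.35, 10.72, 10.20 and 10.05 in WT. Cyto stood at 10.66, 10.91, 10.82 and 10.70, and Nuc at 11.04, 10.67, 10.76 and 10.69. KO did not overlap any other group, WT reached the others with its library 2, and Cyto and Nuc lay in the same range. The rises over KO were 1.17 ± 0.11, 1.61 ± 0.11 and 1.63 ± 0.11, or 2.25-fold, 3.05-fold and 3.09-fold (limma adjusted p = 1.94e-07, 2.11e-09 and 2.26e-09). At 10 mM glucose it rose by 0.35 ± 0.08 in WT and 0.25 ± 0.08 in Cyto (adjusted p = 0.00162 and 0.0212), and its value of 0.09 in Nuc did not pass. In fits without 1 library the value in Nuc ran from 0.02 to 0.13 and was never called. The rise in WT lost its call under quantile normalization (0.04, adjusted p = 0.524). The rise in Cyto lost it without KO library 1 or Cyto library 4 (adjusted p up to 0.121). Exons of Pdia3 overlap exons of Catsper2 on the other strand in a GRCm38 annotation. Catsper2 was listed in both media, at mean log2 levels of 2.92 (10 mM) and 2.35 (1 mM), so reads of the pair may not be separable.

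P4hb, the founding member of the family, had smaller fold changes than the 3 genes above in 1 mM glucose. Its levels in 1 mM glucose were 9.52, 9.44, 9.49 and 9.51 in KO, 10.00, 10.22, 9.92 and 9.85 in WT, 10.07, 10.12, 10.05 and 10.03 in Cyto, and 10.31, 10.14, 10.19 and 10.16 in Nuc. KO was lowest without overlap, and the libraries with ACLY covered a narrow range above it. The log2 fold changes were 0.51 ± 0.07, 0.58 ± 0.07 and 0.71 ± 0.07, or 1.42-fold, 1.49-fold and 1.64-fold (limma adjusted p = 6.73e-06, 9.93e-07 and 1.06e-07). In the 10 mM medium KO ran from 9.33 to 9.55 and every library with ACLY from 9.66 to 9.89. The 3 rises there were 0.33 ± 0.06, 0.30 ± 0.07 and 0.30 ± 0.06 (adjusted p = 0.000549, 0.00232 and 0.000901). No pair of ACLY constructs passed the test in 10 mM glucose, with differences of at most 0.03 (95% intervals within -0.17 to 0.15). The rise in WT was 0.08 under quantile normalization (adjusted p = 0.125).

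Pdia5, an isomerase known to act on the stress sensor ATF6, had a different order. With 10 mM glucose it was at 5.42, 5.32, 5.58 and 5.40 in KO and 5.45, 5.50, 5.55 and 5.78 in Nuc, which overlapped. WT stood at 6.12, 6.23, 6.13 and 6.33 and Cyto at 6.07, 6.07 and 6.19, above both. It rose 1.71-fold in WT (0.77 ± 0.08, limma adjusted p = 2.36e-06) and 1.60-fold in Cyto (0.68 ± 0.09, adjusted p = 2.17e-05), while the value in Nuc was 0.14 (95% interval -0.04 to 0.32). These were the largest rises of any member in 10 mM glucose. In 1 mM glucose the levels were 5.04, 4.97, 5.05 and 4.96 in KO, 6.17, 6.49, 6.02 and 6.14 in WT, 5.69, 5.66, 5.58 and 5.67 in Cyto, and 6.00, 5.93, 5.85 and 5.93 in Nuc. The groups did not overlap, in the order KO, Cyto, Nuc, WT, and each step passed. The rises over KO were 1.20 ± 0.08, 0.65 ± 0.08 and 0.92 ± 0.08 in WT, Cyto and Nuc (adjusted p = 2.46e-09, 1.97e-06 and 3.62e-08).

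Txndc5 (ERp46) was the only one of the 10 that was lower in WT and in Nuc than in KO in both media. In 10 mM glucose its levels were 8.63, 8.69, 8.79 and 8.79 in KO, 8.36, 8.35, 8.38 and 8.51 in WT, 8.65, 8.56 and 8.70 in Cyto, and 7.80, 7.72, 7.85 and 7.90 in Nuc. Nuc lay far below the rest, WT lay between, and Cyto overlapped KO. Nuc was 1.88-fold lower than KO (-0.91 ± 0.06, limma adjusted p = 3.89e-09) and WT 1.25-fold lower (-0.33 ± 0.06, adjusted p = 0.00034). In Cyto the difference of -0.09 did not pass (95% interval -0.23 to 0.05), although it was called at -0.20 under quantile normalization (adjusted p = 0.0179). At 1 mM glucose the levels were 8.87, 8.77, 8.79 and 8.79 in KO, 8.68, 8.66, 8.55 and 8.49 in WT, 9.19, 9.17, 9.15 and 9.08 in Cyto, and 8.43, 8.37, 8.35 and 8.30 in Nuc. The 4 groups did not overlap. Cyto was 1.27-fold higher than KO (0.34 ± 0.05, adjusted p = 2.43e-05), WT 1.16-fold lower (-0.22 ± 0.05, adjusted p = 0.00223) and Nuc 1.36-fold lower (-0.44 ± 0.05, adjusted p = 1.61e-06). The order Nuc, WT, Cyto was the same in both media, with KO beside Cyto in 10 mM and between WT and Cyto in 1 mM glucose. Exons of Txndc5 overlap exons of Bmp6 and of an antisense gene on the other strand in a GRCm38 annotation. Neither gene was listed, and the sources used here do not state whether strand was used in counting.

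Txndc11, a membrane-bound thioredoxin-like protein that takes part in the disposal of misfolded glycoproteins, passed no test in 10 mM glucose. Its KO libraries there stood at 5.89, 5.39, 5.52 and 5.37 and enclosed the range of all other groups, which ran from 5.46 to 5.77. Without KO library 1 the differences were 0.28 in WT and 0.26 in Cyto and both were called (limma adjusted p = 0.00735 and 0.0159). In the 1 mM medium KO was at 5.51, 5.45, 5.41 and 5.55, WT at 6.29, 6.25, 6.35 and 6.10, Cyto at 6.51, 6.66, 6.61 and 6.63, and Nuc at 6.54, 6.54, 6.52 and 6.47. KO was lowest, WT intermediate, and Cyto and Nuc highest and overlapping. The rises were 0.77 ± 0.06, 1.12 ± 0.06 and 1.04 ± 0.06, or 1.70-fold, 2.18-fold and 2.06-fold (adjusted p = 1.44e-08, 7.63e-11 and 2.18e-10). Exons of Txndc11 overlap exons of Snn on the other strand, and Snn was listed in both tables, so reads of the pair may not be separable.

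Txndc12 (ERp19) is a small single-domain thiol enzyme of the ER. At 10 mM glucose it was at 5.45, 5.78, 5.89 and 5.90 in KO, 6.20, 6.36, 6.39 and 6.56 in WT, 5.80, 5.79 and 5.92 in Cyto, and 6.11, 6.14, 6.13 and 6.53 in Nuc. WT and Nuc lay above KO and Cyto, which overlapped. It rose 1.54-fold in WT (0.63 ± 0.11, limma adjusted p = 0.000332) and 1.39-fold in Nuc (0.47 ± 0.11, adjusted p = 0.00265), while Cyto differed by 0.08 (95% interval -0.17 to 0.34). Without KO library 1 the value in Cyto was -0.02 and not called. With 1 mM glucose KO ran from 5.44 to 5.64, WT from 5.98 to 6.43, Cyto from 5.83 to 5.95 and Nuc from 5.84 to 5.95. The rises were 0.62 ± 0.08, 0.37 ± 0.08 and 0.36 ± 0.08 (adjusted p = 7.6e-06, 0.000802 and 0.00121), with WT highest and Nuc and Cyto differing by -0.01 (95% interval -0.19 to 0.16).

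Dnajc10 (ERdj5) is the reductase of the family, which opens disulfides of proteins bound for degradation. In the 10 mM medium its KO libraries ran from 6.89 to 7.19 and WT from 7.19 to 7.44, and WT alone was called (0.27 ± 0.08, limma adjusted p = 0.01) although the groups met at 7.19, with 0.11 for Cyto and 0.15 for Nuc. Without KO library 1 the values in Cyto and Nuc were 0.05 and 0.09, and neither was called. In 1 mM glucose KO was at 6.64, 6.83, 6.78 and 6.81, WT at 7.18, 7.26, 7.17 and 7.05, Cyto at 6.88, 7.11, 7.11 and 7.04, and Nuc at 7.39, 7.26, 7.35 and 7.24. KO lay below all other groups, and Nuc lay above Cyto and overlapped WT. The rises were 0.40 ± 0.07, 0.27 ± 0.07 and 0.54 ± 0.07 (adjusted p = 7.77e-05, 0.00193 and 2.58e-06). The rise in Cyto was 0.15 under quantile normalization (adjusted p = 0.0609).

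Ero1b, the oxidase that recharges the isomerases and another gene with an ERSE match, was lower in WT than in KO in 10 mM glucose and higher in 1 mM glucose. With 10 mM glucose its levels were 3.36, 3.12, 3.41 and 3.40 in KO, 2.97, 2.90, 2.90 and 3.00 in WT, 3.35, 3.68 and 3.79 in Cyto, and 3.07, 3.07, 3.16 and 3.27 in Nuc. WT lay below every other group. It was 1.30-fold lower than KO (-0.38 ± 0.13, limma adjusted p = 0.0234), a call lost in 4 of 15 fits without 1 library (KO 3 or 4, or WT 2 or 3, adjusted p up to 0.0596). It was also lost under quantile normalization (-0.31, adjusted p = 0.0575), without every library numbered 4 (-0.37, adjusted p = 0.0624) and after a correction for transcript length (-0.32, adjusted p = 0.0639). Cyto and Nuc differed from KO by 0.28 and -0.18, and neither passed. The value in Cyto was called with a prior variance without trend (adjusted p = 0.0483). It was also called under quantile normalization (0.37, adjusted p = 0.0392) and without Cyto library 1 (0.41, adjusted p = 0.0392). At 1 mM glucose KO was at 3.06, 2.81, 2.94 and 3.00, WT at 3.89, 3.97, 3.44 and 3.52, Cyto at 4.74, 4.96, 4.84 and 4.79, and Nuc at 4.43, 4.09, 4.05 and 4.09. The groups did not overlap, in the order KO, WT, Nuc, Cyto, and each step passed. Ero1b rose 1.68-fold, 3.68-fold and 2.32-fold in WT, Cyto and Nuc (0.75 ± 0.12, 1.88 ± 0.12 and 1.21 ± 0.12, adjusted p = 5.07e-05, 7.08e-10 and 2.02e-07).

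Its paralog Ero1a, the widely expressed and hypoxia-responsive oxidase, was higher in all forms in both media. In 10 mM glucose Ero1a was at 7.22, 7.44, 7.22 and 7.25 in KO, 8.29, 8.33, 8.40 and 8.20 in WT, 8.05, 8.04 and 7.83 in Cyto, and 7.89, 7.85, 7.77 and 7.60 in Nuc. Every library with ACLY lay above KO, and WT was highest. Ero1a rose by 1.03 ± 0.08, 0.69 ± 0.08 and 0.50 ± 0.08 in WT, Cyto and Nuc (limma adjusted p = 3.1e-08, 6.4e-06 and 5.6e-05). Its rises in 1 mM glucose were 1.02 ± 0.09, 0.88 ± 0.09 and 0.80 ± 0.09 (adjusted p = 4.5e-08, 1.4e-07 and 5.7e-07). For WT the rise of Ero1a differed between media by -0.00 ± 0.12 (adjusted p = 0.99), whereas that of Ero1b differed by 1.13 ± 0.16 (adjusted p = 5.98e-06).

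**Figure D2:**
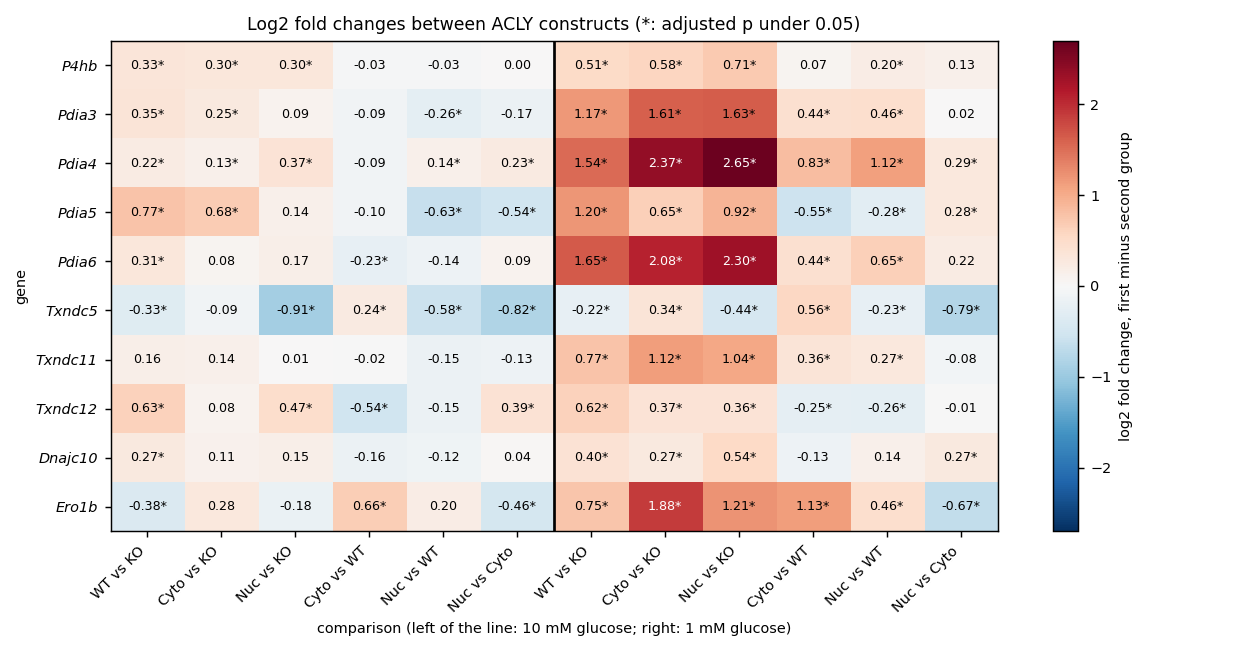
Log2 fold changes (first minus second group) of the 10 genes in 6 comparisons in 10 mM glucose (left of the line) and in 1 mM glucose (right); colour and number give the value and * marks a limma adjusted p under 0.05. The highest values are those of Pdia4 and Pdia6 in Cyto and Nuc against KO in 1 mM glucose, up to 2.65 for Pdia4 in Nuc, and the lowest value is -0.91 for Txndc5 in Nuc in 10 mM glucose.

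The forms of ACLY were then compared with each other. Nuc against Cyto asks about the place of the enzyme, although the constructs also differed in their Acly level. Other differences between the cell lines that carry them cannot be told apart from the place of ACLY. At 10 mM glucose Nuc was higher than Cyto for 2 members and lower for 3, against 15.3% and 15.7% of all genes. Txndc5 was 1.77-fold lower in Nuc (-0.82 ± 0.06, limma adjusted p = 8.4e-08), Pdia5 1.45-fold lower (-0.54 ± 0.09, adjusted p = 0.000304) and Ero1b 1.38-fold lower (-0.46 ± 0.14, adjusted p = 0.0157). Pdia4 was higher by 0.23 ± 0.05 and Txndc12 by 0.39 ± 0.12 (adjusted p = 0.00131 and 0.0229). The call for Ero1b was lost without Cyto library 2 or 4, and that for Txndc12 without Cyto library 1 or 2 or Nuc library 4 (adjusted p up to 0.0848 and 0.0776). Without Cyto library 2 the count was 3 rather than 5.

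In the 1 mM medium Nuc was higher than Cyto for 3 members and lower for 2, against 20.4% and 20.5%. Txndc5 was again lower, 1.72-fold (-0.79 ± 0.05, limma adjusted p = 5.26e-09), and Ero1b 1.59-fold lower (-0.67 ± 0.12, adjusted p = 0.000268). Pdia5, Dnajc10 and Pdia4 were higher by 0.28 ± 0.08, 0.27 ± 0.07 and 0.29 ± 0.10 (adjusted p = 0.0104, 0.00357 and 0.0351). Without WT library 2, which enters through the shared spread, 7 members were called rather than 5, with P4hb and Pdia6 added. Txndc5 and Ero1b were thus lower in Nuc than in Cyto in both media, and neither difference passed the test between media (0.04 ± 0.08 and -0.21 ± 0.17, adjusted p = 0.82 and 0.459).

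Against WT in 10 mM glucose, Cyto was higher for 2 members and lower for 2, against 15.9% and 15.6% of all genes. Ero1b was 1.58-fold higher (0.66 ± 0.14, limma adjusted p = 0.0014) and Txndc5 1.18-fold higher (0.24 ± 0.06, adjusted p = 0.00939). Txndc12 was 1.45-fold lower (-0.54 ± 0.12, adjusted p = 0.00287). Pdia6 was lower by -0.23 ± 0.08 (adjusted p = 0.0475), a call that was lost in 11 of 15 fits without 1 library, among them the fit without any 1 of the WT or Cyto libraries. Nuc was higher than WT for 1 member and lower for 3, against 15% and 13.8%. Pdia5 was 1.55-fold lower (-0.63 ± 0.08, adjusted p = 3.48e-05), Txndc5 1.50-fold lower (-0.58 ± 0.06, adjusted p = 1.74e-06) and Pdia3 1.20-fold lower (-0.26 ± 0.08, adjusted p = 0.0169). Pdia4 was higher by 0.14 ± 0.04 (adjusted p = 0.0207). The call for Pdia3 was lost without WT library 4 or Nuc library 1 or 2 and under quantile normalization (-0.08, adjusted p = 0.209), and that for Pdia4 without WT library 3 or Nuc library 3 (adjusted p up to 0.0658).

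Against WT in 1 mM glucose, Cyto was higher for 6 members and lower for 2, against 25.7% and 27.5%, and Nuc was higher for 6 and lower for 3, against 19.7% and 19.4%. Ero1b and Pdia4 were higher by 1.13 ± 0.12 and 0.83 ± 0.10 in Cyto (limma adjusted p = 7.41e-07 and 4.14e-06), and by 0.46 ± 0.12 and 1.12 ± 0.10 in Nuc (adjusted p = 0.00621 and 3.07e-07). Pdia3, Pdia6 and Txndc11 were higher by 0.44, 0.44 and 0.36 in Cyto and by 0.46, 0.65 and 0.27 in Nuc, and all passed. Txndc5 was higher in Cyto (0.56 ± 0.05, adjusted p = 1.84e-07) and lower in Nuc (-0.23 ± 0.05, adjusted p = 0.00245). Pdia5 and Txndc12 were lower in both, by -0.55 and -0.25 in Cyto and by -0.28 and -0.26 in Nuc. P4hb was called in Nuc (0.20 ± 0.07, adjusted p = 0.0234), a call lost without WT library 3 or 4 or Nuc library 1 and with equal library medians (0.18, adjusted p = 0.0532). The calls for Txndc12 were lost without Cyto library 2 and without Nuc library 1 in turn. Without WT library 2 the counts were 7 higher and 2 lower in Cyto and 7 higher and 3 lower in Nuc. P4hb was then higher in Cyto by 0.14 instead of 0.07 and called (adjusted p = 0.0131), and Dnajc10 was called in Nuc (0.17, adjusted p = 0.0396). The differences of Txndc12 were -0.15 instead of -0.25 in Cyto and -0.17 instead of -0.26 in Nuc, and that of Pdia5 in Nuc was -0.18 instead of -0.28, all still called. All 10 members kept their calls in WT against KO without that library.

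Whether a fold change against KO differed between the media was tested directly, as the value in 1 mM minus that in 10 mM glucose. For WT this difference was above 0 for 6 members and below 0 for 0, against 13.5% and 12.7% of the shared genes. For Cyto the counts were 7 and 0, against 21.5% and 23.2%. For Nuc they were 9 and 0, against 17.8% and 18.7%. The members' median difference was 0.52, 0.71 and 0.91, and that of all shared genes -0.02, -0.03 and -0.02. Medium and sequencing batch cannot be told apart here, and these tests also cross 2 separate normalizations.

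The differences between media were largest for Pdia4, with 1.32 ± 0.11, 2.23 ± 0.12 and 2.29 ± 0.11 for WT, Cyto and Nuc (limma adjusted p = 1.38e-09, 1.49e-14 and 7.99e-15), and for Pdia6, with 1.34 ± 0.15, 2.01 ± 0.15 and 2.13 ± 0.15 (adjusted p = 5.55e-08, 1.67e-11 and 4.13e-12). Pdia3, Ero1b and Txndc11 also passed for all 3 forms. Txndc5 passed for Cyto and Nuc (0.43 ± 0.08 and 0.47 ± 0.08), and in Nuc this meant a fall that was smaller in 1 mM glucose. Txndc12 passed for none, with -0.00 ± 0.14, 0.29 ± 0.15 and -0.11 ± 0.14 (95% intervals -0.30 to 0.29, -0.02 to 0.59 and -0.40 to 0.18). The value of Txndc12 for Cyto passed without KO library 1 of 10 mM glucose (adjusted p = 0.0237) and after the length correction (0.33, adjusted p = 0.0044). For Nuc against Cyto 1 member was above 0 and 0 below, against 9.47% and 9.48%. That member was Pdia5, which was lower in Nuc in 10 mM and higher in 1 mM glucose (difference 0.81 ± 0.12, adjusted p = 9.2e-06). Txndc12 joined it, with -0.40 or -0.44, without KO library 1 or Nuc library 1 of 10 mM glucose or WT library 2 of 1 mM glucose (adjusted p between 0.0313 and 0.0476), against 0.0592 with all libraries. The difference of P4hb for Cyto (0.28 ± 0.09, adjusted p = 0.0172) lost its call without Cyto library 1 of 10 mM glucose (adjusted p = 0.0533).

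**Figure D3:**
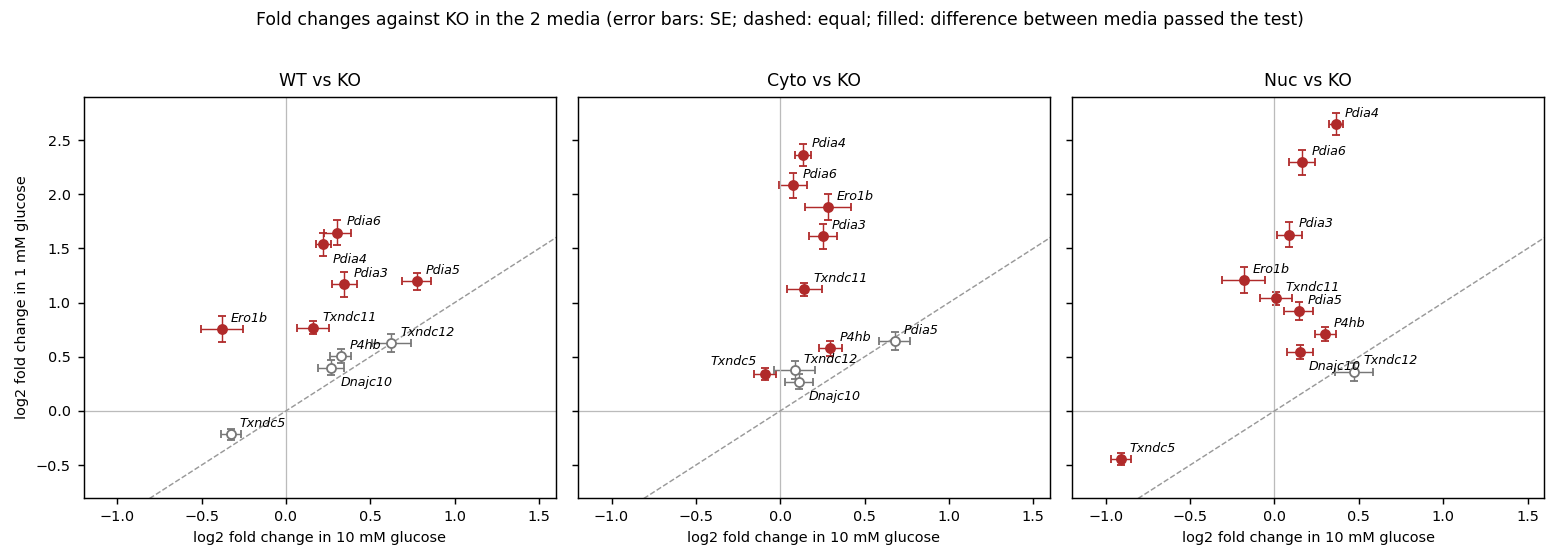
Log2 fold change against KO in 10 mM glucose (horizontal axis) and in 1 mM glucose (vertical axis) for WT, Cyto and Nuc; error bars are limma's standard errors, the dashed line marks equal values, and filled points passed the test of the difference between media. Pdia4 and Pdia6 lie far above the line in all panels (up to 2.65 in 1 mM against 0.37 in 10 mM glucose for Pdia4 in Nuc), and Txndc12 passed in none.

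Genes that work beside the members were read from 7 lists drawn from general knowledge. Each list count below is to be set against the shares of all genes called higher and lower than KO. In 1 mM glucose these were 29.7% and 28.5% in WT, 31.7% and 33% in Cyto, and 30.5% and 29.5% in Nuc. In the 10 mM medium they were 20.6% and 20.2%, 19.6% and 18.9%, and 22.7% and 22.7%. Of 15 ER chaperones, 12 were higher and 1 lower in WT, 13 and 2 in Cyto, and 12 and 2 for Nuc in 1 mM glucose, with medians of 1.52, 2.37 and 2.29. Hspa5 (BiP) rose by 2.31 ± 0.13, 3.34 ± 0.13 and 3.04 ± 0.13, and the cochaperone gene Sdf2l1 by 3.58 ± 0.18, 4.77 ± 0.18 and 4.65 ± 0.18 (limma adjusted p between 2e-12 and 5e-10). Hyou1, a large ER chaperone, rose by 1.85 ± 0.09, 3.28 ± 0.09 and 3.17 ± 0.09, and Dnajc3, a cochaperone of BiP, by 1.38, 2.37 and 2.29. The chaperone counts in 10 mM glucose were 9 higher and 1 lower in WT, 3 and 0 in Cyto, and 5 and 1 in Nuc, with medians of 0.27, 0.19 and 0.04. Without KO library 1 they were 5 and 0, 2 and 0, and 3 and 1. Dnajb11, a BiP cochaperone, rose by 0.53, 0.42 and 0.40 there, Cnpy2 by 0.68, 0.54 and 0.39, and Sil1, a nucleotide exchange factor of BiP, by 0.59 in Nuc. The rise of Cnpy2 in Nuc lost its call without KO library 1 (0.27, adjusted p = 0.0569). Hspa5 passed in WT there (0.20 ± 0.07, adjusted p = 0.025) and not in the other forms, with 0.19 in Cyto and 0.00 in Nuc, and without KO library 1 it did not pass in WT (0.16, adjusted p = 0.0805).

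The calnexin and calreticulin cycle, in which Pdia3 works, had 11 measured genes, with 8 called higher and 0 lower for WT, 9 and 0 for Cyto, and 10 and 1 in Nuc in 1 mM glucose. Calr, the soluble lectin, rose by 1.63 ± 0.10, 2.26 ± 0.10 and 2.18 ± 0.10, and its membrane-bound relative Canx by 0.33 ± 0.09, 0.59 ± 0.09 and 0.70 ± 0.09 (limma adjusted p at most 0.0031). Mogs, the first glucosidase of the cycle, rose by 1.16, 0.93 and 1.36, and Edem1, which acts in glycoprotein disposal, by 1.14, 1.17 and 2.07. In the 10 mM medium 5 and 0 were called in WT, 1 and 1 in Cyto, and 2 and 1 in Nuc. Calr there was higher in WT by 0.23 ± 0.07 (adjusted p = 0.018), lower in Cyto by -0.27 ± 0.08 (adjusted p = 0.013), and at -0.02 in Nuc. Without KO library 1 its value in WT did not pass (0.18, adjusted p = 0.0625). Ganab, the next glucosidase, was higher in WT by 0.34, and Edem1 rose in all 3 forms by 0.76, 0.53 and 1.07.

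Sensors and factors of the unfolded protein response were 14 of 15 listed. With 1 mM glucose 10 were higher and 1 lower in WT, 13 and 1 in Cyto, and 11 and 1 in Nuc. Xbp1 rose by 1.22 ± 0.09, 1.88 ± 0.09 and 1.76 ± 0.09 (limma adjusted p = 5.9e-09, 1.6e-11 and 4.7e-11), Ddit3, which encodes the stress factor CHOP, by 2.09, 2.62 and 2.72, and Eif2ak3, the gene of the sensor PERK, by 0.63, 1.90 and 1.07. With 10 mM glucose 6 and 1 were called in WT, 9 and 1 in Cyto, and 8 and 1 in Nuc. Ddit3 rose there too, by 1.23, 1.18 and 1.03, and Trib3, a target of the PERK branch, by 1.37, 1.55 and 1.04. Xbp1 rose there by 0.41 in Cyto and 0.42 in Nuc, with 0.15 in WT. Creb3l1, a membrane-bound factor that promotes collagen secretion, rose there by 1.69 ± 0.09 for Cyto and 1.35 ± 0.08 for Nuc, with 0.16 for WT. Creb3l1 was also called against KO in 1 mM glucose, where it was among the 3 genes of this list with the smallest adjusted p.

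Collagen hydroxylases and collagen-folding genes include the catalytic partners of P4hb. In 10 mM glucose 12 of 15 of them were higher and 1 lower in WT, 9 and 3 in Cyto, and 12 and 0 in Nuc, with medians of 0.45, 0.33 and 0.53. In 1 mM glucose the counts were 11 and 2, 8 and 6, and 11 and 2. P4ha1 and P4ha2 encode catalytic subunits that pair with the P4hb protein. P4ha1 was at 7.18, 7.41, 7.30 and 7.53 in KO, 8.43, 8.43, 8.30 and 8.49 in WT, 8.41, 8.36 and 8.39 in Cyto, and 8.46, 8.48, 8.45 and 8.62 in Nuc, all in 10 mM glucose. Every ACLY library lay above KO, WT overlapped both other forms, and Nuc lay above Cyto. Its rises were 1.06 ± 0.07, 1.03 ± 0.07 and 1.15 ± 0.07 (limma adjusted p = 6.7e-09, 3.1e-08 and 1.7e-09), against 0.33, 0.30 and 0.30 for P4hb, and in 1 mM glucose 0.92, 0.65 and 0.75. P4ha2 rose by 0.98, 0.56 and 0.53 in 10 mM and 0.82, 0.58 and 0.40 in 1 mM glucose. The third subunit gene, P4ha3, was lower in WT and Cyto (-0.61 ± 0.08 and -0.67 ± 0.09) and higher in Nuc (0.41 ± 0.08) in 10 mM glucose, and likewise in 1 mM glucose (-0.66 ± 0.13, -0.65 ± 0.13 and 0.44 ± 0.13; adjusted p at most 0.0071). Among the rest, Plod1, a collagen lysyl hydroxylase, rose by 1.39, 1.09 and 0.89 in 10 mM glucose, and Serpinh1, the collagen chaperone, by 0.99, 1.20 and 1.07 and P3h1, a prolyl 3-hydroxylase, by 0.80, 1.15 and 0.91 in 1 mM glucose.

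Other thiol enzymes of the ER were read next. Of 14 listed by family, 10 were measured, and Pdia2, Erp27, Agr2 and Agr3 were not listed. At 1 mM glucose the counts were 7 higher and 1 lower in WT, 5 and 0 in Cyto, and 7 and 2 in Nuc, with medians of 0.44, 0.23 and 0.37. The 10 mM counts were 6 and 2, 3 and 0, and 5 and 0. Erp44, which retrieves Ero1 oxidases to the ER, rose by 0.88 ± 0.09, 1.27 ± 0.09 and 1.10 ± 0.09 in 1 mM glucose (limma adjusted p = 5.8e-07, 3.8e-09 and 2.9e-08). Tmx4, a transmembrane relative, rose by 1.25, 0.27 and 0.87 in 10 mM glucose, and in 1 mM glucose it was higher in WT by 0.48 and lower in Nuc by -0.20. Txndc16 rose by 0.43, 0.91 and 0.70 in 1 mM glucose. At 10 mM glucose Tmx1 was higher by 0.26 in WT and 0.29 in Nuc, and Selenom by 0.46 and 0.84. Without KO library 1 the value of Selenom in WT did not pass (0.36, adjusted p = 0.0582).

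Disulfide oxidation and peroxide use beyond Ero1b had 8 of 9 genes measured. In the 10 mM medium 4 were higher and 1 lower in WT, 3 and 1 in Cyto, and 2 and 1 in Nuc, and in 1 mM glucose 5 and 2, 4 and 1, and 5 and 2. The counts for Nuc in 10 mM glucose lay close to the background of 22.7% and 22.7% of all genes. The sulfhydryl oxidase gene Qsox1 rose by 0.22, 0.28 and 0.66 in 10 mM and by 0.64, 0.20 and 0.72 in 1 mM glucose. Qsox2 rose by 0.77, 0.64 and 0.48 in 1 mM glucose, and by 0.69 in WT and 0.28 in Cyto in 10 mM glucose. Prdx4, the ER peroxiredoxin that uses the peroxide made by Ero1, was called lower in Nuc in 1 mM glucose (-0.50 ± 0.10, limma adjusted p = 0.00035), with values between -0.21 and -0.07 in the other comparisons with KO. Its value in WT in 1 mM glucose was -0.21 with all libraries and -0.35, and called, without WT library 2 (adjusted p = 5.25e-06). Gpx8, an ER peroxidase, was lower in 1 mM glucose by -0.30 ± 0.09, -1.10 ± 0.09 and -0.81 ± 0.09 (adjusted p = 0.011, 1.9e-08 and 1.1e-06), while Ero1a and Ero1b rose.

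Cytosolic and mitochondrial thiol reductases were kept as a contrast outside the ER. In the 1 mM medium 4 of 8 were higher and 1 lower in WT, 4 and 2 in Cyto, and 4 and 2 in Nuc, and in 10 mM glucose 1 and 1, 3 and 2, and 1 and 3. Shares of all genes in 1 mM glucose were 29.7% and 28.5%, 31.7% and 33%, and 30.5% and 29.5%. In 10 mM glucose they were 20.6% and 20.2%, 19.6% and 18.9%, and 22.7% and 22.7%. Glrx, which encodes glutaredoxin, was lower by -1.36 ± 0.08, -1.83 ± 0.08 and -1.99 ± 0.08 in 1 mM glucose and by -0.57, -0.61 and -1.25 in 10 mM glucose (limma adjusted p at most 0.001). Txnrd1, the cytosolic thioredoxin reductase gene, rose by 0.42, 1.29 and 0.67 in 1 mM glucose and in Cyto by 0.47 in 10 mM glucose. Txn2, the mitochondrial thioredoxin, rose by 0.86, 1.11 and 0.70 in 1 mM glucose. Gsr, glutathione reductase, was lower in 10 mM glucose by -0.33 in Cyto and -0.57 in Nuc.

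**Figure D4:**
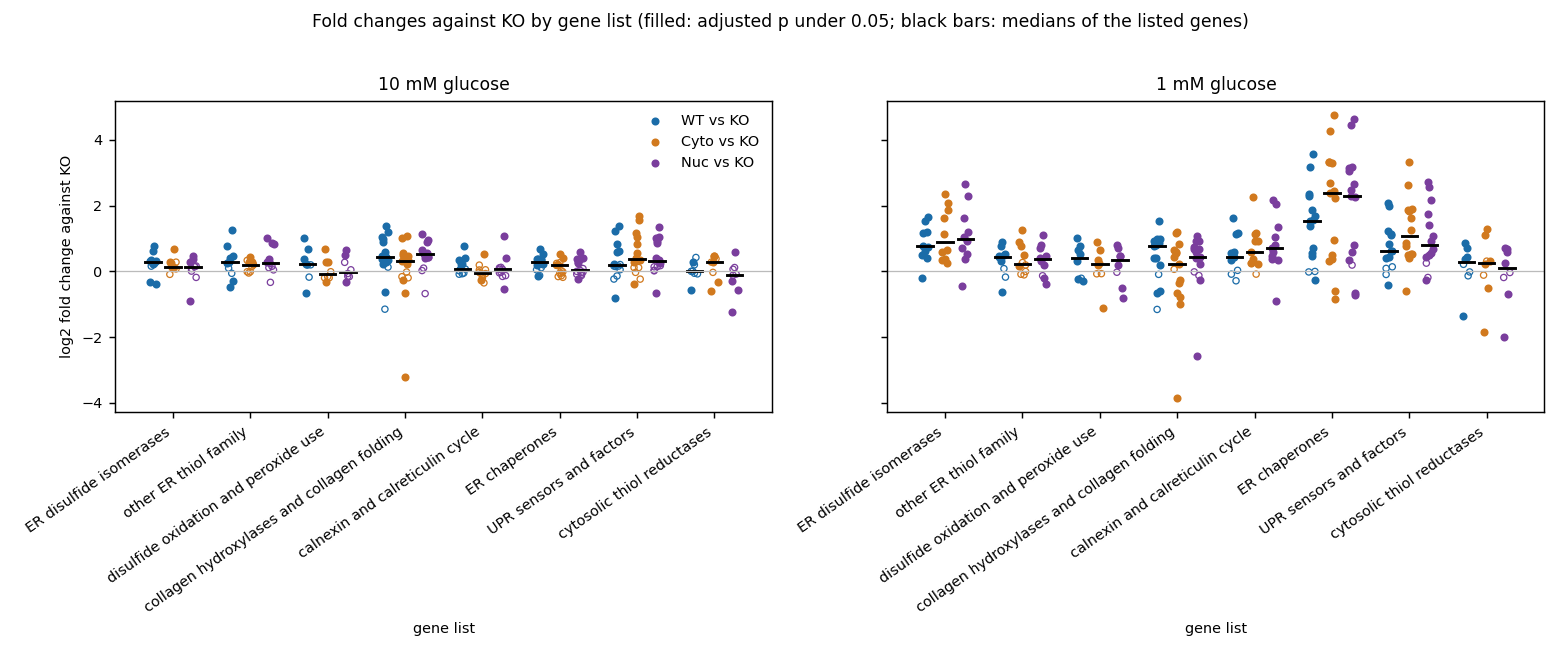
Log2 fold change against KO (vertical axis) of the genes in 8 lists (horizontal axis) in 10 mM and in 1 mM glucose, coloured by construct; filled points passed limma at an adjusted p under 0.05 and black bars are list medians. With 1 mM glucose the ER chaperones have the highest medians (1.52 in WT, 2.37 in Cyto, 2.29 in Nuc), and the 10 members have medians of 0.76, 0.89 and 0.98.

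The genes whose profile was most like that of each member were found by Pearson correlation over all 31 libraries, with each table centred on its own mean, among 5750 genes at or above the median level in both tables. These libraries form 8 groups, so the values mainly describe group means, and no p is given. Pdia6 was closest to Creld2, an ER stress gene (r = 0.993), to Dnajb11 (0.987) and to Manf (0.985). Pdia3 was closest to Dnajb11 (0.988), Pdia6 (0.984) and Creld2 (0.977), and Pdia4 to the transporter gene Slc35b1 (0.983), the chaperone gene Hsp90b1 (0.982) and Creld2 (0.982). Txndc11 had Plekha3 (0.952), Ascc3 (0.946) and Hspa5 (0.944). P4hb had Ddit3 (0.963), Srp54c (0.953) and Tbcb (0.952), and Ero1b had Nus1 (0.942), Nars1 (0.941) and Slc39a6 (0.940).

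Within a medium, r between Pdia3 and Pdia6, Pdia4 and Pdia6, and Pdia3 and Pdia4 was 0.994, 0.986 and 0.984 in 1 mM glucose. The same pairs had r of 0.805, 0.507 and 0.276 in 10 mM glucose. The remaining members, like P4hb and Ero1b, had no other member and no gene of the ER chaperone list among their closest 3. Pdia5 had Zfand3 (0.933), Chd9 (0.931) and Bzw2 (0.913). Txndc5 had Apbb1ip (0.926), the gene G6pdx of the NADPH-producing enzyme glucose-6-phosphate dehydrogenase (0.915), and Emd (0.907). Txndc12 had Hcfc1r1 (0.927), Rhoa (0.909) and Morf4l1 (0.907), and Dnajc10 had the lowest r of the 10, with Nbas (0.884), Srp54c (0.838) and Hapln4 (0.836).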

How the data were processed

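RNA-seq libraries of 4 constructs in 2 media were analysed from the authors' tables, 1 per medium. The authors deposited gene-level log2 values that resemble log2 CPM. Per the submitters' processing notes, kallisto, edgeR and limma were used with GRCm39, and versions, settings, filters and strand use are not given in the sources used here. Read counts could not be recovered, which leaves library depth unknown, and no counting interval is given. Each table's unnamed entry (1 per table) was left out.

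Group means of all 4 constructs were fitted per table with limma 3.58.1 in R 4.3.3, letting the prior variance follow mean level, and Benjamini-Hochberg adjustment ran over the whole table for each of 6 comparisons. For 4 comparisons the 2 media were contrasted in a joint fit over the shared genes. The Cyto library numbered 3 in 10 mM glucose, called an anomaly by the submitters, was not analysed here. The fit was tested on simulated data.

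The members and lists were chosen with earlier results of these data known. Named genes were the 10 members, Acly, Ero1a, Hspa5, Canx, Calr, Erp44, Prdx4, P4ha1, P4ha2 and P4ha3, up to 3 genes per list and medium with the smallest adjusted p against KO, and the 3 most similar genes per member, passing over predicted symbols. Creld2, Manf and Hsp90b1 are also in the chaperone list. Motifs were searched in RefSeq promoter windows of GRCm38.p6 and transcript lengths and exon overlaps came from a GRCm38 GENCODE annotation.

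Alternatives were a prior without trend, equal library medians, quantile normalization, a pseudocount of 1 before the log, a filter at a mean log2 level of 0, a replicate block, leaving out each library (for the lists, only those that stood apart) or all those numbered 4 in 10 mM glucose, and a per-library correction for transcript length (added after seeing the data; a spline with 5 degrees of freedom).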

Additional observations from a re-analysis of the deposited data

Results flagged for a closer look

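Of 70 groups of 4 libraries, 4 had 1 library outside the range that Dixon's test allows at the 95% level, where chance gives about 1 in 20. They were Pdia4 in KO in 10 mM glucose, with library 2 at 8.25 and the nearest at 8.33, and Txndc12 in Nuc in 10 mM glucose, with library 4 at 6.53 and the nearest at 6.14. The others were Ero1b in Nuc in 1 mM glucose, with library 1 at 4.43 and the nearest at 4.09, and Pdia3 in WT in 10 mM glucose, with library 4 at 10.10 and the nearest at 9.97.

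Differences between the media in a fold change, as the log2 value in 1 mM minus that in 10 mM glucose, passed limma's test of the difference itself in 23 cases. For WT against KO they were 1.13 for Ero1b, 0.82 for Pdia3, 1.32 for Pdia4, 0.42 for Pdia5, 1.34 for Pdia6 and 0.61 for Txndc11. For Cyto against KO they were 1.60 for Ero1b, 0.28 for P4hb, 1.36 for Pdia3, 2.23 for Pdia4, 2.01 for Pdia6, 0.98 for Txndc11 and 0.43 for Txndc5. For Nuc against KO they were 0.39 for Dnajc10, 1.39 for Ero1b, 0.41 for P4hb, 1.54 for Pdia3, 2.29 for Pdia4, 0.78 for Pdia5, 2.13 for Pdia6, 1.03 for Txndc11 and 0.47 for Txndc5. For Nuc against Cyto the difference was 0.81 for Pdia5. All 23 were above 0. Of all shared genes, 13.5% and 12.7% were called above and below 0 for WT, and 21.5% and 23.2% for Cyto. For Nuc the shares were 17.8% and 18.7%, and for Nuc against Cyto 9.47% and 9.48%. The comparisons share libraries, so the 23 are not independent. Medium and batch cannot be told apart.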

How the results depend on the processing

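Of the 1220 fold changes of members recomputed under 8 alternatives, 1185 stayed on their side of the threshold, 15 lost the call and 19 gained one. Only 1 reversed, meaning that its sign changed and it was called in at least 1 of the fits. The 1185 include values called in neither fit whose sign changed. There were 1 such with equal library medians, 11 under quantile normalization and 4 without the libraries numbered 4. The reversed value was P4hb in Nuc against WT in 10 mM glucose, which was -0.03 and not called, and 0.11 and called under quantile normalization (limma adjusted p = 0.0396). Quantile normalization changed the most calls, with 7 lost and 6 gained, among them P4hb in Cyto against WT in 1 mM glucose (0.46, adjusted p = 3.53e-08); the cause was not tested. No call changed with a pseudocount of 1 or with the filter at a mean of 0. When each library was left out in turn, 3044 of 3100 values stayed on their side of the threshold, 43 lost the call, 13 gained one and none reversed. Some values called in neither fit changed sign there too. The counts of members called then ran from 2 to 4 for Cyto against KO, 3 to 5 for Nuc against Cyto, 8 to 10 for WT against KO, 3 to 4 for Cyto against WT, stayed at 4 for Nuc against KO, and ran from 3 to 5 for Nuc against WT in 10 mM glucose, and from 4 to 7, 7 to 9 and 7 to 10 for Nuc against Cyto, Cyto against WT and Nuc against WT in 1 mM glucose. They stayed at 10 for the 3 comparisons with KO in 1 mM glucose. For the differences between media they ran from 6 to 8 for Cyto and from 1 to 2 for Nuc against Cyto, and stayed at 6 for WT and 9 for Nuc.

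The gene lists were also recomputed without WT library 2 in 1 mM or KO library 1 in 10 mM glucose, alternatives chosen after seeing the data. Without KO library 1 the chaperone counts for WT against KO in 10 mM glucose moved from 9 and 1 to 5 and 0. Without WT library 2 the disulfide oxidation counts for WT in 1 mM glucose moved from 5 and 2 to 4 and 3, and their median from 0.42 to 0.26. In that medium the unfolded protein response counts moved from 10 and 1 to 12 and 1 for WT. Counts of the other ER thiol enzymes moved from 5 and 0 to 7 and 0 for Cyto. The median of the thiol reductases outside the ER moved from 0.29 to 0.17 for WT. The replicate number as a block gave 2 rather than 1 member for the difference between media of Nuc against Cyto, by adding Txndc12 (-0.40, adjusted p = 0.0294), and in 10 mM glucose it added Pdia6 in Nuc against KO (0.17, adjusted p = 0.0242) and Pdia3 in Nuc against Cyto (-0.16, adjusted p = 0.0154). It lost no call. Libraries with the same number correlated with each other, as deviations from group means, between -0.03 and 0.36 in 10 mM (over 0.1 in 5 of 21 pairs) and between -0.18 and 0.14 in 1 mM glucose (2 of 24). By this measure 10 of 15 and 3 of 16 libraries correlated best with one of their own number. Since not every pair was over 0.1, the numbers were not taken as pairs. A per-library correction for transcript length, chosen after seeing the data, also gave 2 members for that difference, again with Txndc12 (-0.39, adjusted p = 0.00221), and moved 8 calls in all. Because depth is unknown, no limit for low values such as those of Ero1b can be given.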
